A study of Mus musculus with 27 samples.

Results

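The genes described here are 10 of the 55487 genes in the count table, chosen because they mark neutrophils or monocytes, 2 kinds of white blood cell that circulate in blood. The 6 neutrophil genes are S100a8, S100a9, Ngp, Camp, Ly6g and Retnlg, and the 4 monocyte genes are Ly6c2, Ccr2, Plac8 and Chil3. They were found by symbol in the GENCODE M21 mouse annotation. RNA-seq was performed on the cortex and hippocampus of the hemisphere opposite to an infusion into the right lateral ventricle, in 14 male wild-type C57Bl/6J mice. The mice were 8 weeks old and received, for 14 days at 0.25 μl/h, the vehicle PBS (5 cortices, 5 hippocampi), the control antibody pCtrl (5 cortices, 4 hippocampi) or α-IgLON5#1 (4 cortices, 4 hippocampi). The last is a pool of autoantibodies against the neuronal surface protein IgLON5 that was purified from patient plasma, so a human antibody was foreign protein to the mice of both antibody groups. The methods describe pCtrl as serum IgG of a healthy donor, and the labels as a non-reactive monoclonal human antibody. Each mouse carried an implanted pump and cannula.

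Neutrophils are short-lived phagocytes that are made in the bone marrow and carry antimicrobial proteins in granules. S100a8 and S100a9 encode the paired subunits of calprotectin, which fills the neutrophil cytosol and is also made by monocytes. Classical monocytes carry the surface protein Ly6C and follow ligands of the chemokine receptor Ccr2 out of the blood into inflamed tissue. Healthy brain parenchyma holds few cells of either kind, whereas the meninges, the ventricles and blood left in the vessels can contain them.

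Positions are given in the GRCm38 genome. S100a8 (ENSMUSG00000056054.9, chromosome 3, 90668978 to 90670035, plus strand) and S100a9 (ENSMUSG00000056071.12, 90692632 to 90695721, minus strand) are 22.6 kb apart. Chil3 (ENSMUSG00000040809.10, 106147554 to 106167564) is on the same chromosome 3. Ly6c2 (ENSMUSG00000022584.14, chromosome 15, 75108158 to 75111970) and Ly6g (ENSMUSG00000022582.4, 75155240 to 75159126) belong to the Ly6 family of membrane-anchored proteins and are separated by 43.3 kb. Chromosome 9 holds Ngp (ENSMUSG00000032484.8, 110419747 to 110423012), Camp (ENSMUSG00000038357.10, 109847379 to 109849617) and Ccr2 (ENSMUSG00000049103.14, 124101950 to 124113557). Plac8 (ENSMUSG00000029322.12) spans 100553725 to 100572245 on chromosome 5, and Retnlg (ENSMUSG00000022651.6) spans 48872621 to 48874496 on chromosome 16. None of the 10 overlaps another annotated gene.

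C/EBP and PU.1 are transcription factors of the granulocyte and monocyte lineage, and the promoters of the genes were searched for letters of their cores. RefSeq promoter windows (GRCm38.p6, 250 bases before to 50 after a start) were found for all 10 genes, as 13 windows. The C/EBP core TTGCNNAA, read on both strands, is in 10.8% of all 32851 windows of this length, and the PU.1 core AGGAAGT is in 9.35%. The C/EBP letters occur in windows of 5 of the 10 genes (S100a9, Ngp, Ly6g, Retnlg and Plac8), and the PU.1 letters in windows of 4 (S100a8, Ly6g, Ly6c2 and Chil3). Neither core was found at Ccr2 or Camp, and the 2 cores do not overlap each other. A match is a run of letters and not a shown binding site. Printed below are the bases before the first annotated exon for genes on which the results turn, Ly6c2 beside its neighbour Ly6g, Chil3, the pair S100a8 and S100a9, and Ngp, with either core in capitals on either strand.
Ly6c2 (chr15:75111972-75112221, minus strand): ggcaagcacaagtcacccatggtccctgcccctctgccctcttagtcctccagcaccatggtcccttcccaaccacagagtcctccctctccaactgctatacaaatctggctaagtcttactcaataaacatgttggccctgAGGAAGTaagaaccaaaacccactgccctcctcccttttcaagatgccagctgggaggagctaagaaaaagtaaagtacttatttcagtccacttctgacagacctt
Ly6g (chr15:75155011-75155239, plus strand): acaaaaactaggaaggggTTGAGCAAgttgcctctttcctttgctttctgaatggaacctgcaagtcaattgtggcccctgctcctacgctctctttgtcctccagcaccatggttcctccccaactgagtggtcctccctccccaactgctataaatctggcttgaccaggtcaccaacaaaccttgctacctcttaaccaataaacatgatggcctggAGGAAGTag
Chil3 (chr3:106167565-106167814, minus strand): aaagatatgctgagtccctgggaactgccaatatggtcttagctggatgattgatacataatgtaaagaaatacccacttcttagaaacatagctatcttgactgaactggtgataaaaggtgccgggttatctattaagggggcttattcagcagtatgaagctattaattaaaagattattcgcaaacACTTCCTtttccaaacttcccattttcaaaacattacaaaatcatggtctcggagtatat
S100a8 (chr3:90668821-90668977, plus strand): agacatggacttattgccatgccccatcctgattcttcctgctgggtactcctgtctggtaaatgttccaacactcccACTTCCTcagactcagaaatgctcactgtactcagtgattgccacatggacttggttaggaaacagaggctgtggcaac
S100a9 (chr3:90695722-90695971, minus strand): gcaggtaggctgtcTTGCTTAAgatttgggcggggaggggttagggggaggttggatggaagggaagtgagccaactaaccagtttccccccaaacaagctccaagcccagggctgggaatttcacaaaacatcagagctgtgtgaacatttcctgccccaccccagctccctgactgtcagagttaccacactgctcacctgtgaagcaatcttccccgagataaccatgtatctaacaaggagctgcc
Ngp (chr9:110419558-110419746, plus strand): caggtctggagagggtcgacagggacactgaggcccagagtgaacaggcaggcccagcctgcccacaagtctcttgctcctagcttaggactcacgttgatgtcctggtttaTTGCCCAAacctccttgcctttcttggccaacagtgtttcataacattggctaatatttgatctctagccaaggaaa

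Library totals ran from 19385642 to 58550621 counts, and levels are given as CPM, counts relative to the library size after TMM scaling. The labels call the material neurons, but it is whole tissue: summed microglial markers reached 222 to 501 CPM and endothelial markers 130 to 203 CPM, beside 4784 to 7241 CPM of 6 neuronal markers. Hippocampal markers (278 to 1022 CPM in hippocampal, 110 to 186 CPM in cortical libraries) and cortical markers (439 to 722 CPM in cortical, 125 to 344 CPM in hippocampal libraries) fitted the tissue labels. In such bulk samples, more cells of a type and more RNA per cell cannot be told apart. Mouse 8 of the α-IgLON5#1 group stood apart in many of the values below. For the neutrophil and monocyte genes named above, results that rest on it are given with and without its libraries. For the lists of related genes, medians are drawn with and without mouse 8. Calls within these lists are given with all libraries only, except the number of called ligands of Ccr2. How far the other list calls rest on mouse 8 is therefore not shown. Each library is 1 tissue of 1 mouse. All α-IgLON5#1 mice have numbers from 8 to 17, a range that holds 3 pCtrl mice and 1 PBS mouse, and what these numbers stand for is not given.

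Of the monocyte genes, Ly6c2 rose after α-IgLON5#1 in all 4 comparisons with a control group, Ccr2 and Plac8 in 3 and Chil3 in 2, and without mouse 8 Ly6c2 was the only one called against pCtrl. No neutrophil gene was called. Genes reaching 10 counts in 4 or more libraries were tested with edgeR's quasi-likelihood test, and a gene was called when its level changed more than 2-fold with an adjusted p below 0.05. Of the 10 genes, 8 entered the test, and Ly6g and Retnlg were too low. Ly6c2, Plac8 and Chil3 entered only with the help of α-IgLON5#1 libraries, which gave 7 of the 7, 7 of the 10 and 5 of the 8 libraries with at least 10 counts. Camp had 3 such control libraries and 1 α-IgLON5#1 library. Because the filter favoured genes that were high after α-IgLON5#1, the counts of called genes below are a description and not support. Against pCtrl in the cortex, 4 of the 8 tested genes were called up, all of them monocyte genes, where 2.14% of all 20271 tested genes were called up. In the hippocampus against pCtrl, 1 gene (Ly6c2) was called up, with a background of 2.21%. Against PBS, the monocyte genes called up were 4 in the cortex (background 2.24%) and 3 in the hippocampus (background 2.56%). Both comparisons of a tissue share the α-IgLON5#1 libraries. None of the 8 was called down (backgrounds 0.0247%, 0.237%, 0.00493% and 0.109% in the same order). At an unadjusted p under 0.05, the neutrophil genes numbered 0 in the cortex and hippocampus against pCtrl (15.4% and 21.9% of all tested genes), 1 in the cortex (S100a9, 9.26%) and 0 in the hippocampus (15.3%) against PBS. With DESeq2 no neutrophil gene was called either.

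**Figure D1:**
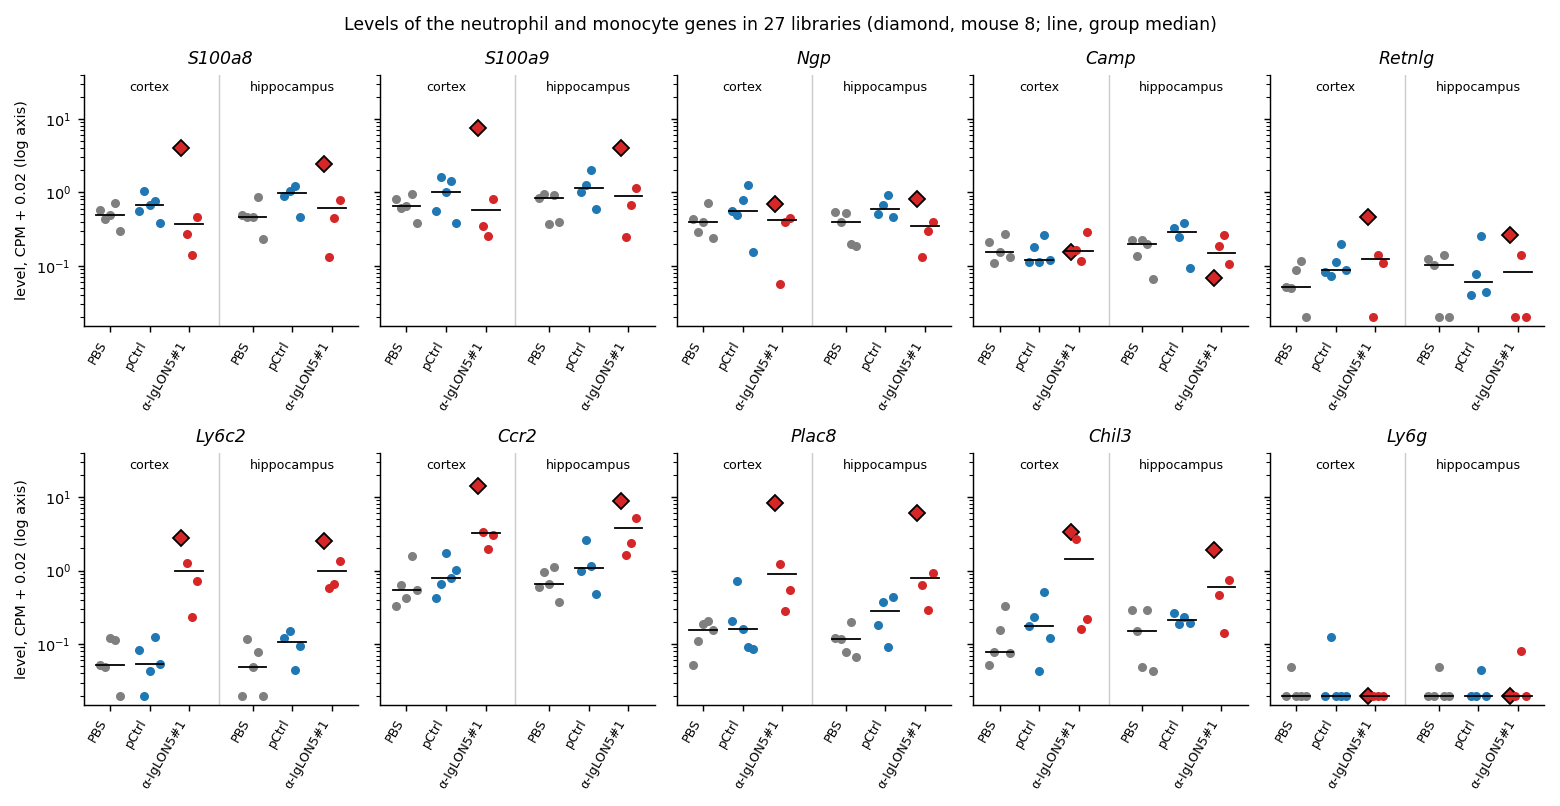
Level of each of the 10 genes in every library, in CPM plus 0.02 on a log axis, by tissue and treatment. Points are libraries, lines are group medians, and diamonds are the 2 libraries of mouse 8. All α-IgLON5#1 libraries lie above all controls of their tissue for Ly6c2 in both tissues and for Ccr2 in the cortex, whereas for S100a8 and S100a9 only mouse 8 does.

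Ly6c2, which encodes a Ly6C surface protein of classical monocytes, separated the groups most clearly. In the cortex of α-IgLON5#1 mice its level was 2.80 CPM in mouse 8, 1.26 in mouse 9, 0.214 in mouse 16 and 0.699 in mouse 17. Cortices of pCtrl mice held 0.0625, 0, 0.0235, 0.105 and 0.0332 CPM, and those of PBS mice 0.0313, 0.0295, 0.101, 0.0945 and 0 CPM. The lowest α-IgLON5#1 cortex, mouse 16 with 9 counts, thus lay above the highest control cortex, which had 3 counts. Such a separation from pCtrl was seen in 3.68% of all tested genes. The log2 fold change was 4.63 (SE 0.753, edgeR adjusted p = 0.00029, n = 4 and 5) against pCtrl and 4.54 (SE 0.730, adjusted p = 0.000209) against PBS.

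Hippocampal Ly6c2 was 2.51 CPM in mouse 8, 0.563 in mouse 9, 0.643 in mouse 16 and 1.32 in mouse 17. The pCtrl hippocampi had 0.102, 0.132, 0.0238 and 0.0736 CPM, and the PBS hippocampi 0, 0.0984, 0.0293, 0.0593 and 0 CPM. Again no α-IgLON5#1 library fell into the control range, as for 6.68% of all tested genes against pCtrl. Ly6c2 rose by a log2 fold change of 3.81 (SE 0.692, edgeR adjusted p = 0.000877, n = 4 per group) over pCtrl and 4.73 (SE 0.726, adjusted p = 6.92e-05) over PBS. The controls held few reads, and the ratio of summed counts shows the counting error: 186 against 7 counts in the cortex, a ratio of 24.9 with a 95% exact binomial interval of 11.8 to 62.7, and 128 against 16 counts in the hippocampus, a ratio of 14.0 with an interval of 8.30 to 25.2. Without mouse 8 these ratios were 14.3 (interval 6.66 to 36.8) and 10.4 (interval 6.03 to 19.2). The intervals cover counting error only, not the spread between mice. Ly6c1, the close relative of Ly6c2 that endothelial cells express, had 13.6 to 21.7 CPM in α-IgLON5#1 libraries and was not called (log2 fold change 0.10 in the cortex and 0.17 in the hippocampus against pCtrl), and reads could be shared between the 2 genes to an unknown extent.

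With each library left out in turn, Ly6c2 was called every time, which is a description, since it had passed the count filter only through α-IgLON5#1 libraries. Its log2 fold change against pCtrl stayed between 3.83 and 5.11 in the cortex and between 3.29 and 4.13 in the hippocampus, and the highest adjusted p was 0.00588 (without hippocampal mouse 8). When only mice 8 to 17 were compared, which leaves 3 pCtrl cortices and 2 pCtrl hippocampi, the values were 5.12 (adjusted p = 0.0953) and 3.37 (adjusted p = 0.180), and no gene of the 10 was called.

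Ccr2, the receptor through which monocytes leave the marrow and enter tissue, was the most abundant of the 4 monocyte genes on the CPM scale. Its cortical level was 14.1 CPM in mouse 8, 3.35 in mouse 9, 1.93 in mouse 16 and 3.06 in mouse 17 of the α-IgLON5#1 group. The pCtrl cortices had 0.407, 0.638, 1.74, 0.772 and 0.997 CPM, and the PBS cortices 0.313, 0.621, 0.403, 1.54 and 0.522 CPM. The groups did not overlap, although mouse 16 (1.93 CPM) lay close to pCtrl mouse 15 (1.74 CPM). Such a separation was seen in 3.68% of all tested genes against pCtrl and in 3.14% against PBS. Cortical Ccr2 rose by 2.56 (SE 0.579, adjusted p = 0.00872) on the log2 scale against pCtrl and by 3.03 (SE 0.596, adjusted p = 0.00195) against PBS. Without the cortex of mouse 8 the value against pCtrl was 1.55 and the call was lost (adjusted p = 0.189).

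In hippocampi, Ccr2 measured 8.71, 1.63, 2.36 and 5.15 CPM in α-IgLON5#1 mice 8, 9, 16 and 17. It was 0.980, 2.56, 1.12 and 0.466 CPM in the pCtrl group and 0.580, 0.951, 0.645, 1.10 and 0.353 CPM in the PBS group. The highest pCtrl library, mouse 15, exceeded 2 of the 4 α-IgLON5#1 libraries, so these groups overlapped, while the PBS libraries lay below all of them (non-overlap in 4.49% of all tested genes). The difference of 1.78 from pCtrl (SE 0.596) was not called (adjusted p = 0.0692), and that of 2.60 from PBS (SE 0.590) was called (adjusted p = 0.00651). Leaving out pCtrl mouse 15 gave 2.37 and a call (adjusted p = 0.0250), as did leaving out α-IgLON5#1 mouse 16 (adjusted p = 0.0410), and leaving out hippocampal mouse 8 ended the call against PBS (2.09, adjusted p = 0.0626). With both libraries of mouse 8 left out, the same difference of 2.09 was called (adjusted p = 0.0106).

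Plac8, a small cysteine-rich protein abundant in Ly6C-high monocytes and other leukocytes, depended on mouse 8 far more. Cortical levels were 8.42 CPM in mouse 8, 1.23 in mouse 9, 0.262 in mouse 16 and 0.520 in mouse 17, against 0.188, 0.692, 0.141, 0.0702 and 0.0665 CPM in pCtrl mice and 0.0313, 0.0886, 0.168, 0.189 and 0.137 CPM in PBS mice. Only mice 8 and 9 lay above pCtrl mouse 11, while all 4 lay above the PBS libraries, as in 3.14% of all tested genes. Plac8 rose in the cortex by 3.67 (SE 0.913, adjusted p = 0.0192) against pCtrl and 4.36 (SE 0.957, adjusted p = 0.00580) against PBS. The call against pCtrl was lost in 5 of 9 leave-one-out fits, with adjusted p values from 0.0525 to 0.0625 without one of the pCtrl libraries of mice 10, 15, 37 and 75, and 0.451 without mouse 8, where the difference was 1.65. The call against PBS was also lost without the cortex of mouse 8 (2.35, adjusted p = 0.354).

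Hippocampal Plac8 was 6.05, 0.619, 0.276 and 0.916 CPM in α-IgLON5#1 mice 8, 9, 16 and 17, against 0.163, 0.357, 0.0713 and 0.417 CPM in pCtrl mice. PBS hippocampi had 0.102, 0.0984, 0.0586, 0.178 and 0.0471 CPM. Mouse 16 lay within the pCtrl range, and all α-IgLON5#1 libraries lay above all PBS libraries, as in 4.49% of all tested genes. The difference from pCtrl was 2.89 (SE 0.921, adjusted p = 0.0557, not called), and that from PBS was 4.27 (SE 0.998, adjusted p = 0.00857, called). Without the hippocampus of mouse 8 these were 1.25 (adjusted p = 0.515) and 2.63 (adjusted p = 0.227). With both of its libraries left out, the difference of 2.63 from PBS was called (adjusted p = 0.0192), so this call depended on whether the cortex of mouse 8 was in the fit.

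Chil3, which encodes the chitinase-like protein Ym1 of monocytes, neutrophils and alternatively activated macrophages, was high in the cortex of some α-IgLON5#1 mice only. It reached 3.34 CPM in mouse 8 and 2.63 in mouse 9, but 0.143 in mouse 16 and 0.197 in mouse 17. The pCtrl cortices held 0.156, 0.213, 0.0235, 0.491 and 0.0997 CPM, and the PBS cortices 0.0313, 0.0591, 0.134, 0.315 and 0.0550 CPM, so mice 16 and 17 lay inside the control range. Cortical Chil3 rose by 3.03 (SE 0.823, adjusted p = 0.0356) against pCtrl and 3.68 (SE 0.861, adjusted p = 0.0108) against PBS, and 6 of 9 leave-one-out fits lost the first call, with adjusted p values of 0.0690 to 0.266. The highest was without mouse 8, where the difference was 2.28, and without mouse 8 the call against PBS was lost as well (2.93, adjusted p = 0.139).

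Chil3 levels in the hippocampus were 1.87, 0.450, 0.123 and 0.716 CPM in α-IgLON5#1 mice 8, 9, 16 and 17, compared with 0.245, 0.169, 0.214 and 0.172 CPM in pCtrl mice and 0.273, 0.131, 0.0293, 0.267 and 0.0235 CPM in PBS mice. Mice 8, 9 and 17 were above all controls and mouse 16 was below all pCtrl libraries. Neither the difference from pCtrl (1.91, SE 0.877, adjusted p = 0.200) nor that from PBS (2.44, SE 0.888, adjusted p = 0.141) was called. Chil4, the near-identical neighbour of Chil3, had at most 4 counts in any library.

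**Figure D2:**
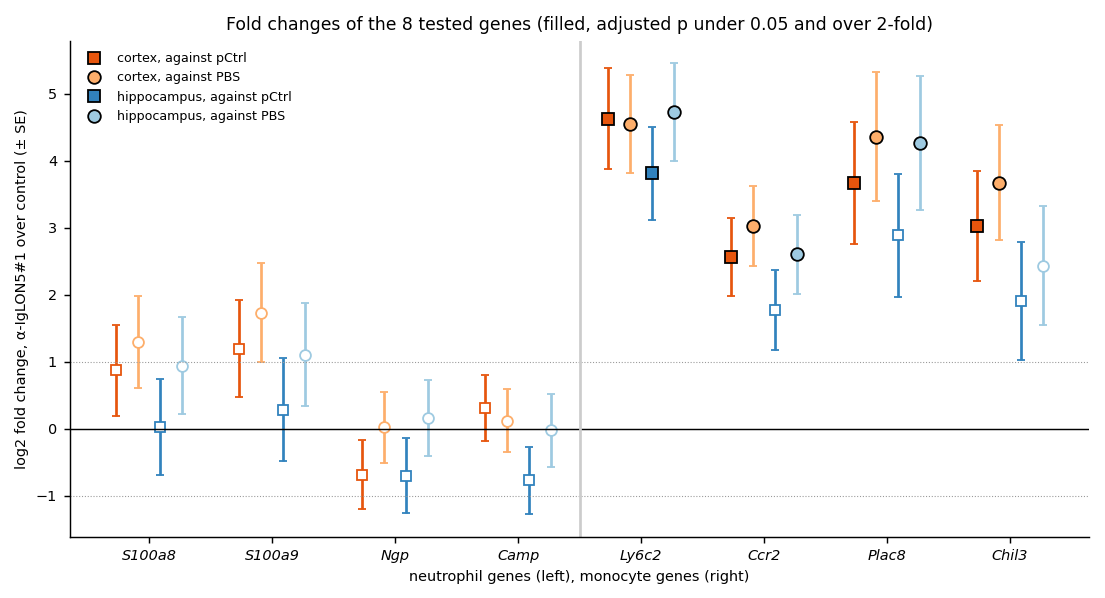
Log2 fold change (± SE, edgeR) of α-IgLON5#1 over pCtrl (squares) and over PBS (circles) in the cortex and hippocampus, for the 8 tested genes. Filled symbols were called. Values of the 4 monocyte genes lie between 1.78 and 4.73, and those of the 4 neutrophil genes between -0.77 and 1.74, with none called.

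S100a8 and S100a9 had the same pattern across mice, high in mouse 8 and within or below the control range in the other 3 α-IgLON5#1 mice. Cortical S100a8 was 3.96 CPM in mouse 8, against 0.252, 0.119 and 0.448 CPM in mice 9, 16 and 17. The control cortices held 0.532, 1.01, 0.659, 0.737 and 0.366 CPM (pCtrl) and 0.563, 0.414, 0.470, 0.693 and 0.275 CPM (PBS). Thus mouse 8 exceeded the highest control 3.92-fold, while mice 9 and 16 were below every control cortex. Cortical S100a9 was 7.41 CPM in mouse 8 and 0.325, 0.238 and 0.788 CPM in mice 9, 16 and 17, compared with 0.532, 1.60, 0.988, 1.40 and 0.366 CPM in pCtrl mice and 0.782, 0.591, 0.638, 0.914 and 0.357 CPM in PBS mice. Mouse 8 was 4.64-fold above the highest control.

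Over all cortices, the log2 difference from pCtrl was 0.88 (SE 0.678, adjusted p = 0.584) for S100a8 and 1.20 (SE 0.724, adjusted p = 0.456) for S100a9. With both libraries of mouse 8 left out, a setting chosen after the data were seen, the values turned to -1.17 (adjusted p = 0.314) and -0.998 (adjusted p = 0.463). Neither direction passed the test. Against PBS the cortical differences were 1.30 (SE 0.689) and 1.74 (SE 0.739) and were not called, and without mouse 8 they were -0.75 and -0.46.

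Mouse 8 was highest in the hippocampus too. Here S100a8 was 2.41 CPM in mouse 8 and 0.113, 0.429 and 0.773 CPM in mice 9, 16 and 17, against 0.878, 1.01, 1.21 and 0.442 CPM in the pCtrl group and 0.477, 0.443, 0.440, 0.831 and 0.212 CPM in the PBS group. S100a9 was 3.98 CPM in mouse 8 and 0.225, 0.643 and 1.12 CPM in mice 9, 16 and 17, with 1.00, 1.24, 1.97 and 0.564 CPM after pCtrl and 0.818, 0.918, 0.352, 0.890 and 0.377 CPM after PBS. Mouse 9 was the lowest of all hippocampi for both genes. Differences from pCtrl were 0.03 (SE 0.716, adjusted p = 0.986) for S100a8 and 0.29 (SE 0.769, adjusted p = 0.872) for S100a9, and -0.89 and -0.75 without mouse 8. Those from PBS were 0.94 (SE 0.723, adjusted p = 0.603) and 1.11 (SE 0.766, adjusted p = 0.548), and 0.02 and 0.07 without mouse 8.

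Ngp and Camp encode neutrophilic granule protein and the cathelicidin CRAMP, cargo of secondary granules that is transcribed mainly in the marrow before neutrophils are released. Cortical Ngp was 0.679, 0.0361, 0.381 and 0.430 CPM in α-IgLON5#1 mice 8, 9, 16 and 17, within or below the 0.133 to 1.23 CPM of pCtrl mice and the 0.220 to 0.693 CPM of PBS mice. In hippocampi it was 0.787, 0.113, 0.276 and 0.372 CPM, with 0.442 to 0.904 CPM after pCtrl and 0.165 to 0.511 CPM after PBS. Mouse 8 was the highest of the 4 α-IgLON5#1 mice for Ngp in both tissues, but below the highest pCtrl library (0.553 times its level in the cortex and 0.871 times in the hippocampus). Log2 differences from pCtrl were -0.68 (SE 0.512, adjusted p = 0.568) in the cortex and -0.70 (SE 0.556, adjusted p = 0.503) in the hippocampus.

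Camp was low everywhere. Cortices of α-IgLON5#1 mice 8, 9, 16 and 17 had 0.136, 0.144, 0.0952 and 0.269 CPM, from 4 to 15 counts, and all control cortices lay between 0.0886 and 0.252 CPM, so only mouse 17 was above them. Their hippocampi had 0.0492, 0.169, 0.245 and 0.0859 CPM, and control hippocampi 0.0471 to 0.357 CPM. Mouse 8 thus had 1 count of Camp in the hippocampus, where S100a9 had 81. The differences from pCtrl, 0.32 (SE 0.492, adjusted p = 0.822) in the cortex and -0.77 (SE 0.502, adjusted p = 0.397) in the hippocampus, were not called. Against PBS, the differences of Ngp and Camp lay between -0.02 and 0.17 in both tissues.

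Ly6g, the surface protein by which mouse neutrophils are usually identified, had 0 to 2 counts in each of the 27 libraries, below the 3 counts taken as the detection limit, and no fold change is given. In mouse 8 it had 0 counts in both tissues, which allows up to 0.0815 CPM in the cortex and 0.148 CPM in the hippocampus. Retnlg, a resistin-like protein secreted by neutrophils, reached 10 counts in 2 libraries. Its highest cortical level was in mouse 8 (0.435 CPM, 16 counts), against 0, 0.119 and 0.0896 CPM in mice 9, 16 and 17 and at most 0.175 CPM in control cortices. The hippocampus of mouse 8 had 0.246 CPM (5 counts), close to pCtrl mouse 37 with 0.238 CPM (10 counts). In exact two-sided permutation tests of mean log2 CPM, the 4 comparisons of α-IgLON5#1 with pCtrl or PBS gave adjusted p values of 0.865, and the smallest unadjusted p was 0.317 (cortex against PBS, where the smallest the design allows is 0.00794).

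Scaled by exon length as RPKM, which allows genes to be compared, the order of mean levels differed between treatments. In PBS hippocampi S100a9 came first (1.29 ± 0.541 RPKM, SD, n = 5), before S100a8 (0.692 ± 0.320), Ngp (0.283 ± 0.137) and Camp (0.198 ± 0.0900). Ccr2 (0.107 ± 0.0441 RPKM), Chil3 (0.0887 ± 0.0747) and Plac8 (0.0608 ± 0.0323) followed, with Ly6c2 last (0.0137 ± 0.0153). The means of Ngp and Camp, and those of Ccr2, Chil3 and Retnlg, lay within 1 SD of each other. In all 4 control groups S100a9, S100a8, Ngp and Camp took the first 4 places and Ly6c2 the last of 9. In α-IgLON5#1 hippocampi, S100a9 (2.86 ± 3.26 RPKM, n = 4) and S100a8 (1.34 ± 1.47) still ranked highest. Plac8 (1.23 ± 1.72 RPKM), Ccr2 (0.660 ± 0.475), Chil3 (0.484 ± 0.465) and Ly6c2 (0.459 ± 0.328) ranked above Ngp (0.317 ± 0.235) and Camp (0.181 ± 0.116), and neighbours in this order overlapped. Without mouse 8, Plac8 averaged 0.379 ± 0.201 RPKM (n = 3), below Ccr2 (0.451 ± 0.275), while Ly6c2 had 0.307 ± 0.151 and Chil3 0.263 ± 0.182, still above Camp (0.220 ± 0.105) and Ngp (0.207 ± 0.107). S100a9 (1.27 ± 0.855) and S100a8 (0.631 ± 0.476) ranked highest here too.

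In both tissues, mouse 8 was the highest of the 4 α-IgLON5#1 mice for 8 of the 10 genes, all but Camp and Ly6g, and above all controls of the tissue for 7. The shares of all tested genes with these patterns were not computed, so the counts describe mouse 8 and do not set the 10 genes apart. The level in mouse 8 exceeded that of the next α-IgLON5#1 mouse 9.40-fold for S100a9, 8.85-fold for S100a8, 6.87-fold for Plac8, 4.19-fold for Ccr2 and 1.27-fold for Chil3 in the cortex. Mouse 17 had higher levels in the hippocampus than in the cortex for all 4 monocyte genes, and mouse 9 lower ones. Between α-IgLON5#1 hippocampi and cortices, edgeR called 0 of the 8 tested genes, where 2.46% of all tested genes were called higher and 2.7% lower in the hippocampus. The effect of α-IgLON5#1 was not called different between tissues for any of them, against pCtrl (background 0% in each direction) or PBS (background 0.00493% and 0%), with interaction values against pCtrl from -1.13 for Chil3 (SE 1.24) to -0.01 for Ngp (SE 0.736). At an unadjusted p under 0.05 these 3 comparisons also held 0 of the 8 genes, with 34.5%, 10.6% and 3.32% of all tested genes in that order. DESeq2 also called 0, but for the interaction against pCtrl it gave an adjusted p for only 1 of the 8 genes.

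**Figure D3:**
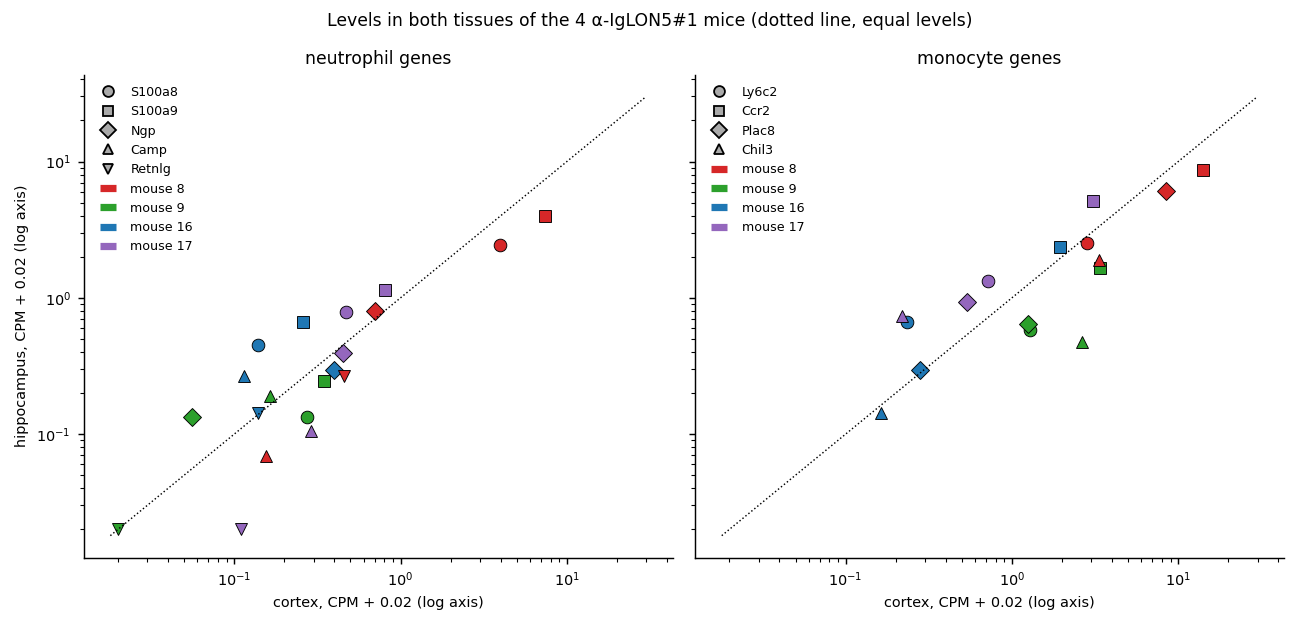
Level in the cortex against level in the hippocampus of the same α-IgLON5#1 mouse, in CPM plus 0.02 on log axes, for 5 neutrophil genes (left) and 4 monocyte genes (right). Colors are mice and symbols genes. Mouse 8 lies at the upper right for S100a8 (3.96 and 2.41 CPM), S100a9, Ccr2 and Plac8, and nearer to the other mice for Ngp and Camp.

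The comparison of the control groups with each other asks whether an infused human antibody alone went with these genes. Against PBS, pCtrl changed the level of 0 of the 8 genes in the cortex and 0 in the hippocampus by edgeR, where 0% and 0.0493% of all tested genes were called up and 0% and 0.0148% down. DESeq2 gave an adjusted p for 0 of the 8 in the cortex and for 6 in the hippocampus, of which it called 0, and its unadjusted p was under 0.05 for 0 of the 8 in either tissue. At an unadjusted p under 0.05 it was also 0 of the 8, with 8.14% and 14% of all tested genes. In the hippocampus the pCtrl means were higher than the PBS means for all 8, with log2 differences from 0.53 (Chil3) to 1.38 (Plac8), and in the cortex the differences ran from -0.19 (Camp) to 0.71 (Ngp).

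Without both libraries of mouse 8, edgeR called up 1 of the 8 genes against pCtrl in each tissue, where 1.25% of all tested genes were called up in the cortex and 1.8% in the hippocampus. This was Ly6c2, with log2 fold changes of 3.83 (SE 0.673) and 3.29 (SE 0.599). Against PBS, 3 genes were called up in each tissue, Ly6c2, Ccr2 and Plac8 (backgrounds 1.52% and 2.2%), while Chil3 was not (2.92, adjusted p = 0.0891 in the cortex). Of the other 3 α-IgLON5#1 mice, all had more Ly6c2 than every control in both tissues, and none had more S100a8 or S100a9 than the highest control in either.

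**Figure D4:**
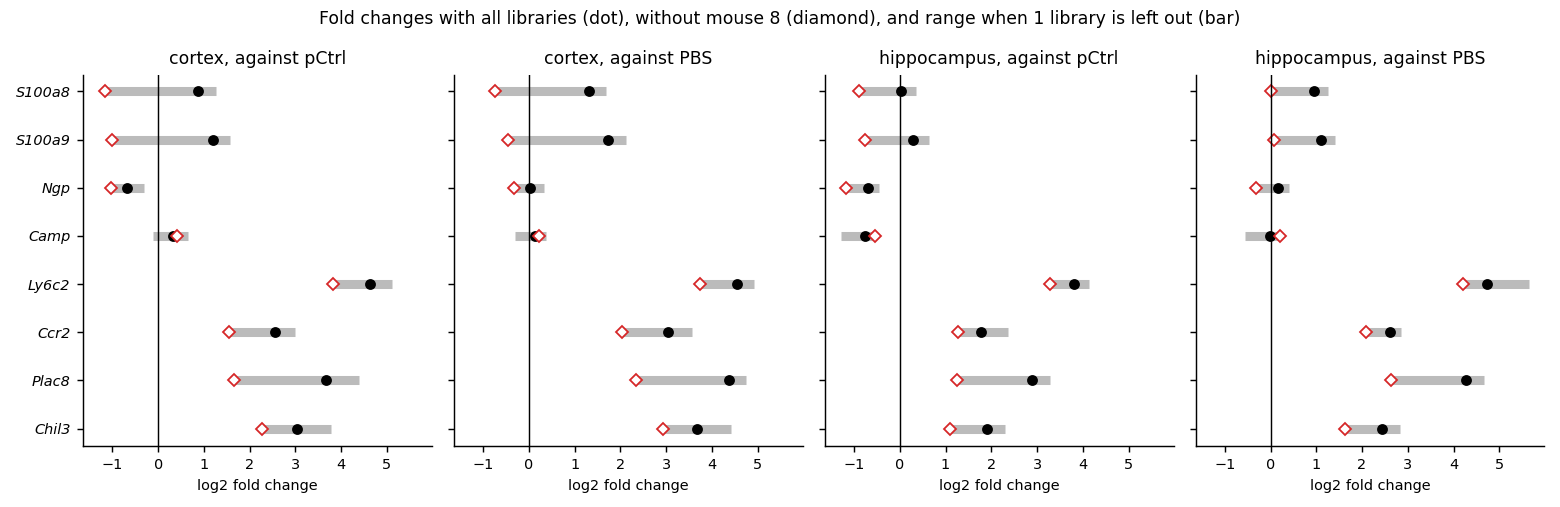
Log2 fold change of α-IgLON5#1 over control for the 8 tested genes with all libraries (dots), without both libraries of mouse 8 (diamonds), and the range when each library of the compared groups is left out in turn (bars). Ly6c2 stays above 3 throughout, whereas S100a8 and S100a9 cross zero against pCtrl once mouse 8 is left out.

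Within groups, the genes did not vary as 1 block. Deviations of log2 CPM from the group mean over the 27 libraries were correlated at r = 0.96 for S100a8 and S100a9 (0.90 over the 25 libraries without mouse 8), and at 0.67 for S100a9 and Ngp (0.58). Ly6c2 and Chil3 had r = 0.64 (0.51 without mouse 8), and Ccr2 and S100a8 0.75 (0.56). Plac8 and S100a8 went from 0.69 to 0.23 when mouse 8 was left out, and Camp with S100a8 went the other way, from 0.11 to 0.54, with S100a9 from 0.10 to 0.50 and with Ngp from 0.20 to 0.40. Among all tested genes outside immunoglobulin loci, ranked over the 27 libraries, the most similar to S100a8 were Tubb6 (r = 0.91, and 0.75 without mouse 8) and Pirb (0.90 and 0.74). For Ly6c2 these were Ms4a6c (0.80 and 0.75 without mouse 8) and Capg (0.79 and 0.71), and for Ccr2 Cd74 (0.85 and 0.83), P2ry10 (0.85 and 0.84) and H2-Aa (0.85 and 0.86). Plac8 was most like Ets1 (0.93 and 0.86) and Icam1 (0.86 and 0.66), and Chil3 most like Timeless (0.80 and 0.71). For Ngp the list was Ctnna1 (0.83 and 0.78), Sh3pxd2b (0.83 and 0.78) and the granule gene Ltf (0.82 and 0.78). The order without mouse 8 was not computed. These are descriptions, since libraries of 1 mouse share their source and low counts share depth.

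The chemokines that act on the receptor Ccr2 rose in both tissues, whereas Ccr2 itself was not called in the hippocampus against pCtrl. All 4 ligands measured, Ccl2, Ccl7, Ccl8 and Ccl12, were called up against pCtrl in both tissues (median log2 fold change 4.59 in the cortex and 3.94 in the hippocampus, beside -0.01 and 0.00 over all tested genes). Ccl2, the main monocyte attractant, rose in the cortex to 7.50 ± 11.0 CPM (log2 fold change 6.19, SE 1.14, adjusted p = 0.00112), with 0.143 CPM in the lowest library and 23.8 CPM in mouse 8, against 0.0313 to 0.160 CPM in pCtrl cortices. Ccl12 rose from 0.344 ± 0.171 to 14.6 ± 16.0 CPM in the cortex. It was above all pCtrl libraries in all 4 α-IgLON5#1 mice, as in 3.68% of all tested genes. Without mouse 8, 3 of the 4 ligands were called in each tissue, with medians of 3.75 and 2.93. Ccl2, Ccl7 and Ccl8 passed the count filter only with the help of α-IgLON5#1 libraries, as did Ms4a4c, Adgre4, Fpr2 and Cxcl1 below.

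Other monocyte genes rose in part. Of 9 tested classical monocyte genes, 4 were called up in the cortex and 3 in the hippocampus against pCtrl (medians 1.93 and 1.96), and 0 down. Lyz2, the lysozyme of monocytes, macrophages and microglia, rose from 15.6 ± 4.44 to 93.7 ± 52.4 CPM in the hippocampus, Ms4a6c from 0.714 ± 0.113 to 3.69 ± 1.57 CPM, and Ms4a4c was the third there. Vcan, Fn1, F13a1 and Itga4 had log2 differences of -0.63 (F13a1) to 0.20 (Itga4) in the hippocampus and were not called. Genes of non-classical monocytes gave 3 of 4 called up in the cortex (Itgal, Spn and Adgre4) and 2 of 4 in the hippocampus. Cortical Adgre4 was far higher in mouse 8 than in the other α-IgLON5#1 mice, with the levels given under other observations. Receptors for proteins of the 2 cell types gave 2 of 4 in each tissue, the formyl peptide receptor genes Fpr1 and Fpr2, while Ager and Tlr4, receptors of S100 proteins, were not called (in the cortex, Tlr4 had an adjusted p of 0.0251 but less than the 2-fold change).

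Neutrophil genes outside the 6 behaved unequally. Of 10 genes of the mature neutrophil surface and cytosol, 4 were high enough to test, and Csf3r, Clec4d and Clec4e were called up in both tissues, although microglia and macrophages also transcribe them. Clec4d and Clec4e had at most 4 and 3 counts in any control library and passed the count filter only through α-IgLON5#1 libraries, so their calls are no support. Csf3r, the receptor of granulocyte colony-stimulating factor, was 14.4 to 23.2 CPM in α-IgLON5#1 cortices and 5.48 to 9.58 CPM in pCtrl cortices. Primary granule genes (0 of 2 tested) were not called, and of 5 secondary and tertiary granule genes only Lcn2 was, which astrocytes transcribe as well, while the granule gene Ltf had -0.73 and -0.87 against pCtrl but 1.08 and 0.17 against PBS, none of them called. The neutrophil-attracting chemokine Cxcl5 was called up in both tissues and Cxcl1 in the cortex. Several genes of this kind were too low to test and were high only in mouse 8: the chemokine receptor Cxcr2 had 60 counts (1.63 CPM) in its cortex and 10 (0.492 CPM) in its hippocampus, Trem1 had 54 and 15 counts, and the ligand genes Cxcl2 and Csf3 had 70 and 66 counts in the cortex. In all control cortices, Cxcr2, Trem1, Cxcl2 and Csf3 had at most 2 counts. Over control libraries of both tissues the highest count was 5 for Cxcr2 and for Csf3, 2 for Cxcl2 and 1 for Trem1.

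Some markers of lymphocytes were also higher after α-IgLON5#1. Against pCtrl, 5 of 6 B cell markers were called up in the hippocampus and 3 of 6 in the cortex, 2 of 4 and 1 of 4 T cell markers, and 1 of 5 plasma cell markers (Jchain) in each tissue. Summed T cell markers were 3.83 to 8.02 CPM in α-IgLON5#1 and 2.02 to 3.85 CPM in pCtrl hippocampi. Of 6 NK cell markers only Eomes, which neurons can also express, was high enough to test and was not called, and their sum was 0.609 to 2.82 CPM in α-IgLON5#1 and 0.0313 to 0.842 CPM in pCtrl cortices, and 1.35 to 2.21 and 0.491 to 1.06 CPM in the hippocampi. Platelet markers (0 of 2) and those of mast cells, basophils and eosinophils (0 of 3) were not called in either tissue. Of 8 microglial markers 0 were called, and among 7 border macrophage markers Ms4a7 was called up and Lyve1 down in both tissues. The part of these cells in the levels of Ccr2, Plac8 and Chil3 was not tested. Erythrocyte markers, a measure of residual blood, were not called in either tissue (0 of 5, medians -0.32 and -0.49), and their sum was 5.05 to 9.19 CPM in pCtrl cortices. Among α-IgLON5#1 mice, the sum was 8.99, 3.53, 2.81 and 5.97 CPM in the cortices of mice 8, 9, 16 and 17. In their hippocampi it was 5.41, 2.87, 2.36 and 5.13 CPM, so mouse 17 lay close to mouse 8 there. Whether residual blood had a part in the levels of mouse 8 was not tested. With a haemoglobin score as covariate, S100a8 and S100a9 differed from pCtrl by 0.78 and 1.003 in the cortex and 0.43 and 0.76 in the hippocampus, again not called, and Ly6c2 by 4.99 and 4.13, called in both. Of 5 choroid plexus and 5 meningeal markers 0 were called in either tissue.

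**Figure D5:**
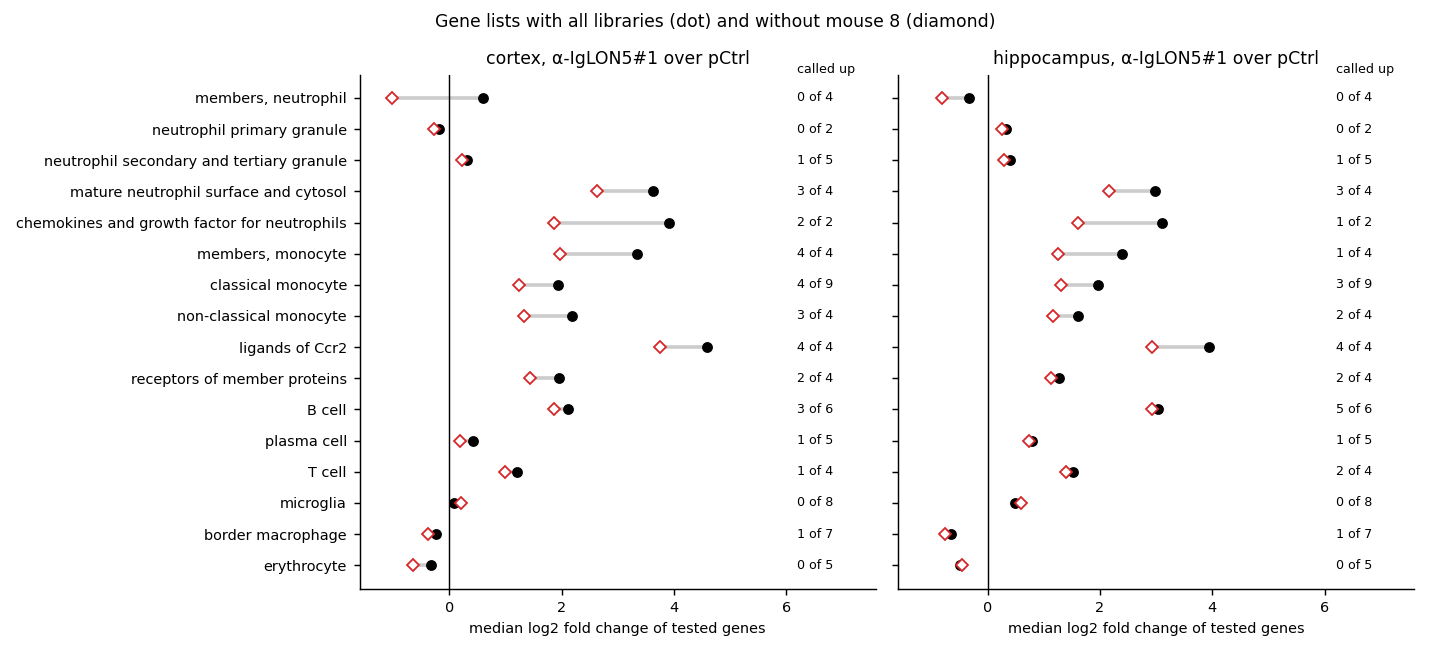
Median log2 fold change of α-IgLON5#1 over pCtrl for the tested genes of each list, in the cortex (left) and hippocampus (right), with all libraries (dots) and without both libraries of mouse 8 (diamonds), with the number called up of the number tested. The neutrophil list of 4 tested genes moved from 0.60 to -1.02 in the cortex without mouse 8, and the ligands of Ccr2 from 4.59 to 3.75.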

How the data were processed

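The members and gene lists were chosen with earlier results of these data known. RNA of 27 tissue samples was sequenced as paired-end, stranded mRNA libraries. The authors aligned reads to GRCm38 with STAR and deposited raw counts per gene, without normalization. The submitters' processing notes list STAR 1.4.0. The counting program, annotation release and strand setting are not given in the sources used here. The table is whole numbers, totals differed between libraries, 0 columns were unassigned, and counts of the 48 within-group library pairs differed beyond sampling noise (chi-square divided by its degrees of freedom, 4.82 or more), so none was a repeat. Of 55487 gene IDs, 55227 matched GENCODE M21 without the version number.

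The main test was edgeR 4.0.16 (R 4.3.3, TMM, glmQLFit, glmQLFTest, 6 groups, all 27 libraries, no covariate) on genes reaching 10 counts in 4 or more libraries, with Benjamini-Hochberg adjustment over all of them. Calls needed more than a 2-fold change with an adjusted p below 0.05, except interactions, which had no fold threshold. SE is the log2 fold change divided by the square root of F. Retnlg, under the filter, had an exact permutation test on log2 CPM (prior count 1). All 10 genes are named with values, and related lists are given as counts and medians with examples. The functions were tested on simulated data. The number in a label is the mouse's number, and it pairs the tissues of a mouse: deviations from group means were correlated between tissues at -0.0498 to 0.443 over 13 mice (median 0.194, above 0.1 in 8). Alternatives were DESeq2 1.42.0, RLE factors, other count filters, no fold threshold, only the groups compared, mice 8 to 17, a haemoglobin covariate, a replicate block, and each replicate left out. Leaving out both libraries of mouse 8 was added after the data were seen. Other tests of the study were not used here.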

Additional observations from a re-analysis of the deposited data

Results flagged for a closer look

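Of 51 sets of libraries (a gene in a group, with more than 3 counts in some library), 8 had 1 library far from the others by Dixon's criterion at the 95% level. The criterion assumes normally distributed values, whereas these were CPM on the linear scale, often from low counts. The sets also share mice, so the number of flags is a description. Mouse 8 was that library in 5 of them. Its cortex stood apart in the α-IgLON5#1 group for S100a8 (3.96 CPM, next highest 0.448), S100a9 (7.41 CPM, next 0.788), Ccr2 (14.1 CPM, next 3.35) and Plac8 (8.42 CPM, next 1.23). Its hippocampus stood apart for Plac8 (6.05 CPM, next 0.916). The other 3 were control libraries. Plac8 was 0.692 CPM in the cortex of pCtrl mouse 11, with 0.188 CPM as the next value. Ccr2 was 1.54 CPM in the cortex of PBS mouse 38 (next 0.621), and Retnlg was 0.238 CPM in the hippocampus of pCtrl mouse 37 (next 0.0564). The cause of these values was not tested.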

How the results depend on the processing

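Leaving out 1 library at a time, the genes called up against pCtrl numbered 1 to 4 in the cortex and 1 to 3 in the hippocampus, and against PBS 2 to 4 and 1 to 3. In the hippocampus against pCtrl, 1 of the genes was called, but 2 without a count filter or with DESeq2, 3 with the haemoglobin covariate, and 0 among mice 8 to 17. The 4 called in the cortex against pCtrl became 1 when only the groups compared were fitted, 0 among mice 8 to 17, and 1 without both libraries of mouse 8. In the cortex against PBS, 2 were called when only the groups compared were fitted. Mice 8 to 17 gave no comparison with PBS. The replicate block, with the 2 tissues of a mouse paired, called 0 genes in the interactions and in the tissue difference, as did the fit without it, and changed no call.

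Without both libraries of mouse 8, S100a8 and S100a9 reversed to -1.17 and -0.998 in the cortex and to -0.89 and -0.75 in the hippocampus against pCtrl, and to -0.75 and -0.46 in the cortex against PBS. Ngp then had -0.32 and -0.33 against PBS in the hippocampus and cortex, and Camp 0.20 in the hippocampus. Plac8 against PBS in the cortex had adjusted p = 0.0482 in that edgeR fit and 0.354 with only its cortical library left out. S100a8 in the hippocampus against pCtrl was -0.00607 without a count filter and -0.0585 among mice 8 to 17. Against PBS, Camp had 0.0404 in the hippocampus with the covariate, and Ngp had -0.00229 in the cortex with DESeq2. Retnlg turned with a prior count of 0.25, to -0.191 against pCtrl in the cortex and -0.014 against PBS in the hippocampus. Its leave-one-out ranges were -0.508 to 0.843 and -0.509 to 0.590, and -0.828 to 0.332 against pCtrl in the hippocampus. Leaving out 1 library at a time also turned S100a8 and S100a9 against PBS in the cortex (-0.75 to 1.69 and -0.46 to 2.12), and against pCtrl in the cortex (-1.17 to 1.27 and -1.001 to 1.58) and hippocampus (-0.90 to 0.35 and -0.75 to 0.63). Ngp against PBS ran from -0.34 to 0.34 in the cortex and -0.32 to 0.39 in the hippocampus. Camp ran from -0.31 to 0.37 and -0.55 to 0.20 there, and from -0.12 to 0.64 against pCtrl in the cortex. The causes were not tested. Depth limits Ly6g, Camp and Retnlg, at 0 to 16 counts in every library.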

Other observations

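Some values belong to no comparison above. Adgre4, a receptor gene of non-classical monocytes, had 80 counts (2.17 CPM) in the cortex of mouse 8 and at most 0.397 CPM in the other α-IgLON5#1 cortices. Hp, the haptoglobin gene of neutrophil granules and liver, had 133 counts (3.61 CPM) there and at most 0.613 CPM in the other 3. Mpo, the myeloperoxidase of primary granules, had 2 to 9 counts in α-IgLON5#1 cortices and 1 to 9 in pCtrl cortices, and Elane had at most 3 counts in each of these libraries.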
